A study of Mus musculus with 16 samples.

Results

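RNA bound to several ribosomes was compared between the gastrocnemius, the large calf muscle, of mice heterozygous for Eif6 (Het, Eif6+/-, with 1 working copy of the gene) and of wild-type (WT) mice. The arrays were chosen by their labels as those of polysome RNA, which gave 6 of the 16 arrays of the series, with 3 Het and 3 WT mice represented once each. All mice were male C57BL6 littermates between 8 and 16 weeks of age, were fed standard chow and received no treatment. The muscle was flash frozen, lysed and spun through a sucrose gradient, and the fractions in which transcripts carried 2 or more ribosomes were pooled. How the Eif6 allele was made, and in which cells it is inactive, is not given in the sources used here. The same mice also gave whole-muscle RNA on 6 further arrays, which are used only to set the polysome values beside those of the unfractionated muscle.

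The product of Eif6, eukaryotic initiation factor 6 (eIF6), attaches to the 60S ribosomal subunit, takes part in its assembly and keeps it from joining the 40S subunit too early. Polysomes are mRNAs that several ribosomes translate at once, so the level of a transcript in this fraction depends both on how much of the transcript the muscle holds and on how well ribosomes load onto it. Skeletal muscle spends most of its translation on contractile proteins and on the enzymes that supply them with ATP. The question posed by the study was whether a reduced dose of Eif6 shifts which mRNAs are found on polysomes.

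Each polysome sample was labelled with 1 dye and hybridised to an Agilent array of 62976 spots, and levels are given below as the log2 processed signal after quantile normalization of the 6 arrays, on which 1 unit is a doubling. A difference is the mean of the Het arrays minus the mean of the WT arrays on that scale, with its standard error (SE), and n is 3 arrays in each genotype unless an array is left out or 1 slide is taken alone. A probe entered the test if the scanner software marked it as well above background on all arrays of either genotype, as it did for 19112 probes. Of these, 16 lacked a value on some array, and 19096 probes with 15179 gene names were tested with limma. The study called a gene when its absolute log2 difference exceeded 1 with a p under 0.05, and "called", "higher" or "lower" below refers to that threshold with an unadjusted p.

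The 6 arrays were not alike in quality. WT replicate 2 was the dimmest, with a 75th percentile of 24.1 scanner units against 54.73 to 106.4 on the others, and 30.12% of its spots were well above background against 37.34% to 43.02%. It also differed in the balance of probes near the 5′ and the 3′ end of the same transcript. Over 658 pairs of such probes at least 500 bases apart, the median 5′ minus 3′ difference was 0.09 on that array and lay between -1.64 and -1.23 on the other 5. WT replicates 1 and 3 correlated better with the Het arrays (mean r of 0.955 and 0.975) than with the arrays of their own genotype (0.930 and 0.944). The arrays came from 2 slides, with WT 1, WT 2 and Het 1 on one and WT 3, Het 2 and Het 3 on the other. A fit on 1 slide therefore sets a single array of one genotype against 2 of the other, with the lone array assumed to vary like the rest, and slide values are read below for their size and not for a lost or gained call. The main results are therefore given with and without WT replicate 2 and within each slide. The whole-muscle arrays were split by genotype in brightness. Their 75th percentiles were 33.02, 13.49 and 19.07 on Het replicates 1 to 3 and 150.1, 57.11 and 42.32 on WT. Probes were not filtered for signal on those arrays, and the part of brightness in the whole-muscle differences was not tested. The muscle label was borne out by the fibre markers, since all 14 were measured and their mean signals lay between 7.65 and 18.67, with troponin Tnni2 at 18.53 in Het and 18.67 in WT.

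No probe passed an adjusted p of 0.05. The smallest limma adjusted p was 0.459, and 2043 probes, 10.7% of those tested, had an unadjusted p under 0.05, while the methods' t-test likewise gave 0 probes after adjustment and 1747 before it. At the study's threshold 880 probes (4.61%) were called, 526 of them higher (2.75%) and 354 lower (1.85%) in Het, which came to 845 genes, 503 higher and 342 lower. Without WT replicate 2 the count was 941 genes with 508 higher and 433 lower, of which 442 genes were shared with the count from all 6 arrays, and the smallest limma adjusted p was 0.15. The balance of directions was not fixed: 59.5% of called genes were higher when the polysome arrays were normalized and fitted alone, 64.6% under 75th percentile scaling, and 71.9% (741 of 1030) when they were normalized and fitted together with the whole-muscle arrays, over 19066 probes. It was 49.6% (274 of 552) among probes well above background on all 6 arrays, 52.5% with array brightness as a term, where 270 of the 922 called genes were shared with the 845, and 39.2% without Het replicate 3. With a single array in 1 genotype, slide 1 alone gave 114 called genes, 86 higher and 28 lower, and slide 2 alone 537, of which 223 were higher and 314 lower. Leaving out 1 array at a time, the count lay between 388 without Het replicate 2 and 1651 without WT replicate 3. With 1 probe for each gene, 2.48% of genes were called higher and 1.88% lower (2.32% and 2.64% without WT replicate 2), all Het arrays lay above all WT arrays for 13.3% of genes and below them for 9.22%, the median difference was 0.03, and 51.7% of genes lay above 0. These are the values beside which each gene group below is read.

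Eif6 itself was lower in Het polysomes. Its 60-base probe at chr2:155645718-155645777 (mm9) read 9.71, 9.59 and 9.48 in Het replicates 1 to 3 and 10.78, 11.20 and 10.49 in WT. The lowest WT array therefore stood well above the highest Het array. The difference was -1.23 (SE 0.27, limma adjusted p = 0.459), and the exact permutation test gave p = 0.1, the smallest that 3 against 3 arrays can give. A second Eif6 probe read -1.15, or -0.97 without WT replicate 2. The difference was -1.03 without WT replicate 2, -1.27 on slide 1 alone and -0.96 on slide 2 alone. In whole muscle it was -0.92, and the test of the polysome difference against the whole-muscle difference gave -0.39 with an unadjusted limma p of 0.284 over all probes.

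**Figure D1:**
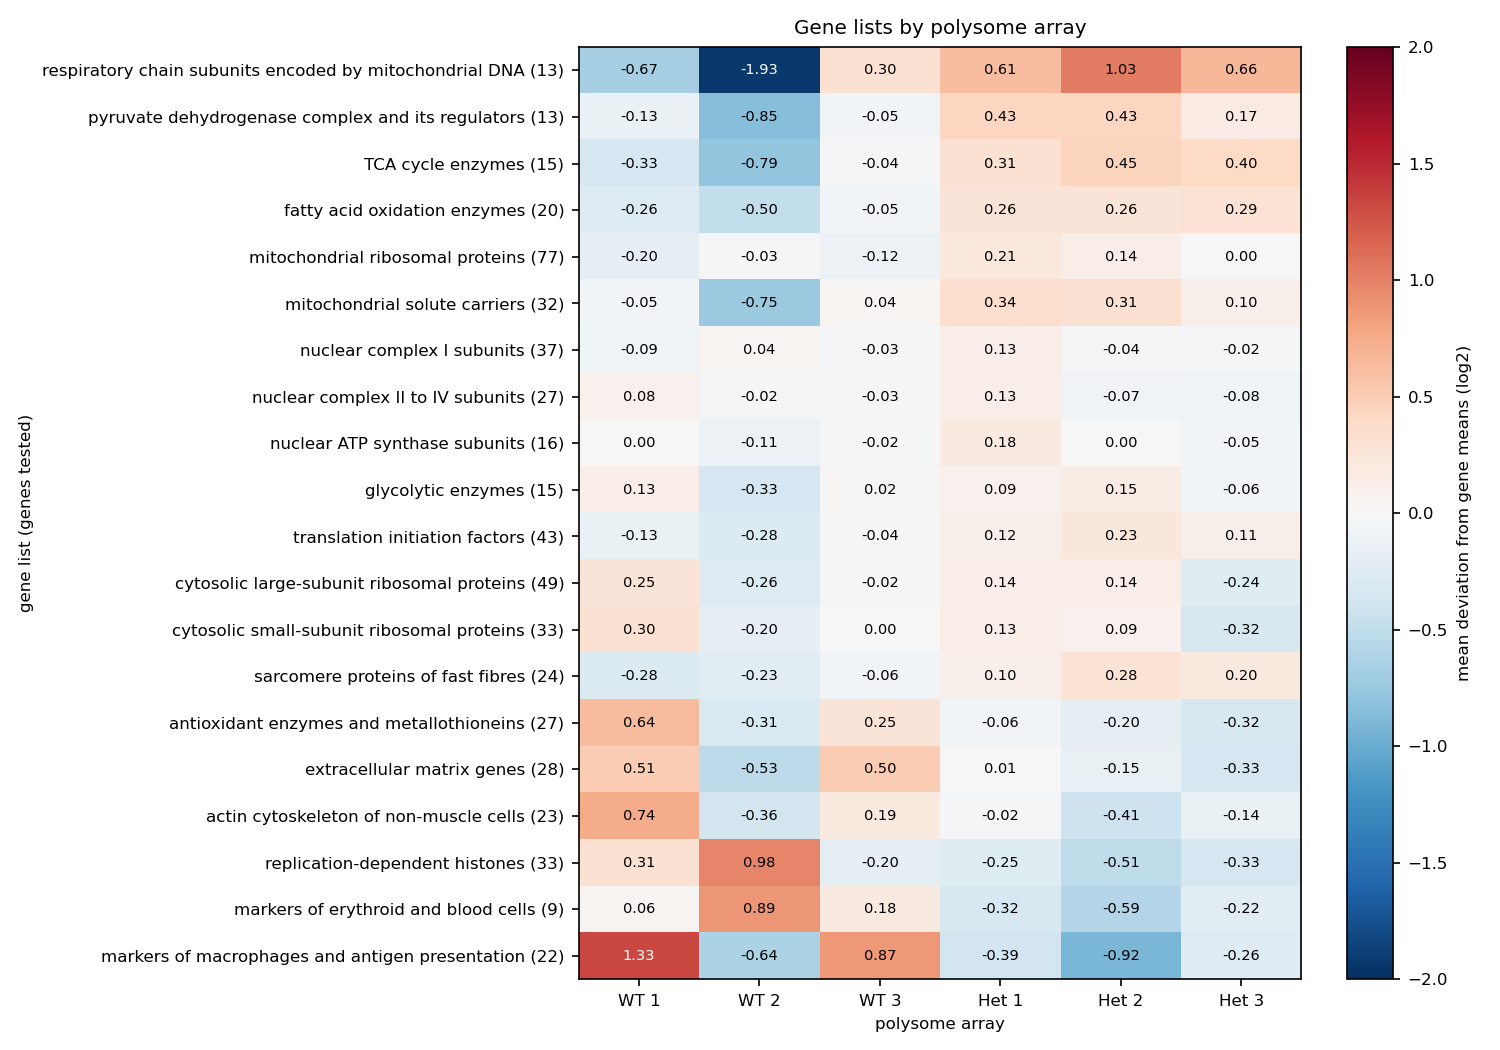
Mean deviation of each gene list (rows, with the number of genes tested) from its genes' means over all 6 arrays, on the log2 scale, for each polysome array (columns, WT 1 to 3 and Het 1 to 3). Mitochondrial-DNA genes run from -1.93 on WT 2 to 1.03 on Het 2, histones and erythroid markers are highest on WT 2 at 0.98 and 0.89, and macrophage markers are highest on WT 1 at 1.33 and WT 3 at 0.87.

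The transcripts of mitochondrial DNA had the highest median difference of the gene lists examined with all 6 arrays and whichever 1 was left out, but not on slide 2 alone or with brightness as a term, where slow-fibre markers were higher. Mitochondrial DNA encodes 13 respiratory chain subunits, which are translated inside the organelle by mitochondrial ribosomes and not by the cytosolic ribosomes that eIF6 binds. Of the 13 measured transcripts, 12 lay above 0 and 8 were called higher, against 2.48% of all genes, and none was lower. The median difference was 1.67 against 0.03 over all genes. In 10 of 13 all Het arrays lay above all WT arrays, against 13.3% of all genes.

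The probe sequences of ND4, CYTB and ND6 show how the 1 transcript outside the pattern differs. ND6 is transcribed from the opposite strand of mitochondrial DNA to the other 12, and this strand bias can be seen in the letters: ND6's probe holds 15 G in 60 bases and the other 12 hold 4 to 11, with a median of 5.5. The probe with 11 is that of ND3, which the array design places on chromosome 1 and not on mitochondrial DNA. The sequences are those of the array design, 5′ to 3′, with every G in capitals. The probes lie at chrM:11370-11429 on the plus strand for ND4, chrM:15099-15158 on the plus strand for CYTB and chrM:13552-13611 on the minus strand for ND6 (mm9).
ND4: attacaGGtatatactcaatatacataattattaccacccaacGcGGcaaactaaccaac
CYTB: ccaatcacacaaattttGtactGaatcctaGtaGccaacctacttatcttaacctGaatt
ND6: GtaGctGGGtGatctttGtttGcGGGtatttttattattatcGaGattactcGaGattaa

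ND4, a subunit of complex I, read 13.02, 13.39 and 12.58 in Het and 10.62, 8.53 and 11.89 in WT. WT replicate 2 was lowest by a wide margin, and the other WT arrays also stayed below every Het array. The difference was 2.65 (SE 0.79), or 1.72 without WT replicate 2, 3.45 on slide 1 alone and 1.09 on slide 2 alone. CYTB, the cytochrome b of complex III, read 14.56, 14.95 and 14.48 in Het and 12.84, 10.45 and 13.95 in WT. Its difference was 2.25 (SE 0.81), or 1.23 without WT replicate 2, 2.92 on slide 1 alone and 0.76 on slide 2 alone. CYTB is thus higher on all Het arrays by an amount that depends on the WT array it is set against, and its call was lost without any one Het array, with differences of 2.31, 2.13 and 2.33 without Het 1, 2 and 3.

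The other 6 called transcripts encode the ATP synthase subunits ATP6 (1.84) and ATP8 (1.67), the complex I subunits ND1 (1.80), ND5 (1.70) and ND2 (1.58), and the cytochrome oxidase subunit COX3 (1.79). Without WT replicate 2 these were 1.25, 1.40, 1.44, 1.18, 0.96 and 0.95 in the same order. ND4, ND5, ATP8 and ND1 kept their calls whichever array was left out. ATP6 lost its call without Het replicate 2 (1.64), while COX3 and ND2 lost theirs without WT 1 (1.93 and 1.59), WT 2 or any Het array. ND3 (1.43), COX2 (1.25), COX1 (1.22) and ND4L (0.94) did not pass the threshold, and COX2 was at -0.20 with array brightness as a term. Without WT replicate 2 these were at 0.65, 0.33, 0.60 and 0.57 in the same order. ND6, a complex I subunit, read 7.14, 7.71 and 8.42 in Het and 7.71, 8.22 and 7.90 in WT, a difference of -0.19 with overlapping arrays. Its sign turned on slide 2 alone (0.16), with brightness as a term (0.10) and without Het replicate 1 (0.12).

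**Figure D2:**
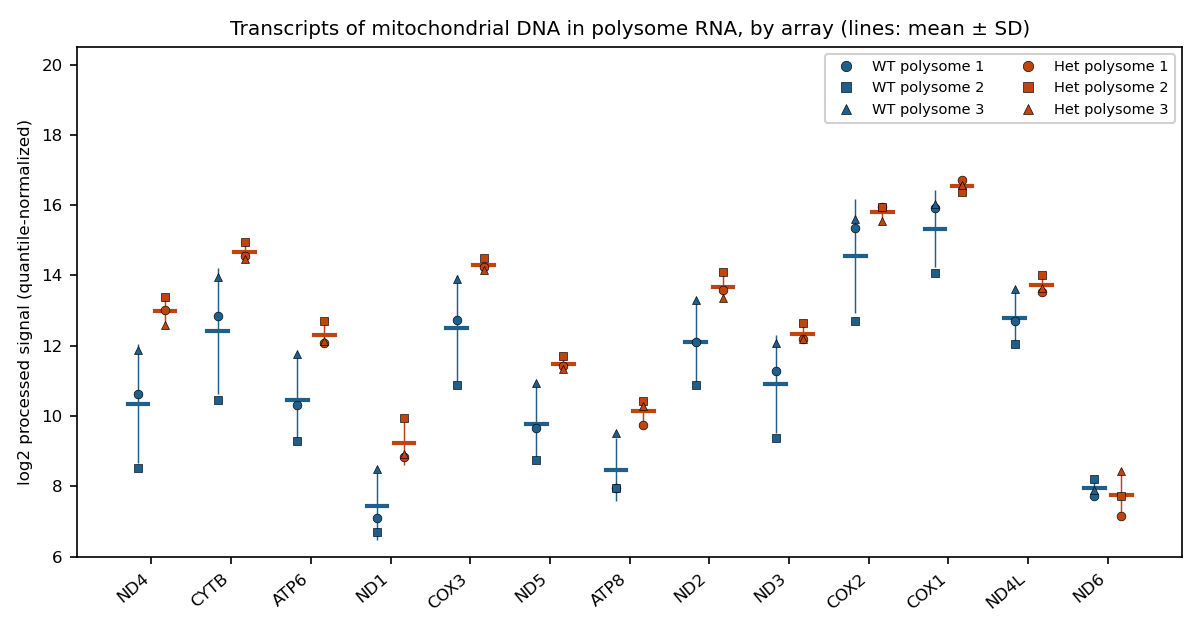
Log2 normalized signal (vertical axis) of the 13 mitochondrial-DNA transcripts (horizontal axis), with 1 point for each of the 3 Het and 3 WT polysome arrays and lines for the mean ± SD. For ND4 the Het points lie between 12.58 and 13.39 and the WT points between 8.53 and 11.89, and for ND6 the points of both genotypes overlap.

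The size of this group difference depended on which arrays were compared. The median over the 13 was 0.96 without WT replicate 2, 1.94 on slide 1 alone and 0.45 on slide 2 alone, and 0.44 with array brightness as a term. WT replicate 2 was the lowest array for 12 of the 13 transcripts and Het replicate 2, the brightest array, was the highest for 10. The part of brightness and of the 5′ to 3′ balance in the difference was not tested beyond these values. Leaving out 1 array at a time gave medians from 0.96 to 2.19 (without WT replicate 3) and from 4 calls (without Het replicate 2) to 11 (without WT replicate 3). Over all genes, the share called higher was 3.85% without WT 1, 5.6% without WT 3, 1.82% without Het 1, 1.15% without Het 2 and 2.23% without Het 3, and the share called lower 2.29%, 3.14%, 1.9%, 0.804% and 4.16% in the same order. In whole muscle of the same mice the median difference was -0.16 with no gene called. The test of polysome against whole-muscle differences, done in each mouse, had a median of 1.78 over the 13, with 7 at an unadjusted p under 0.05 and 0 after limma's adjustment over 19066 probes. For ND4 it was 2.62 (limma adjusted p = 0.195).

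Nuclear genes of the enzymes that feed the respiratory chain also lay mostly above 0. Of 13 genes of the pyruvate dehydrogenase complex, which turns pyruvate into acetyl-CoA, and its regulators, 11 lay above 0 with a median of 0.70, and 2 were called higher. Of 15 TCA cycle enzymes 14 lay above 0, 11 had all Het arrays above all WT arrays, the median was 0.89 and 2 were called higher. Of 20 fatty acid oxidation enzymes 18 lay above 0, 13 had all Het arrays above all WT arrays, the median was 0.55 and 2 were called higher. None of these genes was called lower. Over all genes, 51.7% lay above 0, 13.3% had all Het arrays above all WT arrays and 2.48% were called higher. Leaving out 1 array, the calls ranged from 1 (without WT 2) to 6 (without WT 3) for the pyruvate dehydrogenase list, from 2 to 8 (without WT 3) for the TCA list, and from 0 (without WT 2 or any Het array) to 4 (without WT 3) for fatty acid oxidation. Without WT replicate 2 the medians of the 3 lists were 0.50, 0.52 and 0.44, and in whole muscle they were 0.16, 0.03 and -0.02.

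Pdha1, the E1 alpha subunit of pyruvate dehydrogenase (chrX:156560665-156560724), read 10.44, 10.84 and 10.76 in Het and 9.03, 7.47 and 9.85 in WT. No WT array reached the lowest Het array. Its difference of 1.90 (SE 0.57) was the highest among the genes named by rule that were well above background on all 6 arrays, became 1.23 without WT replicate 2, and kept its call whichever array was left out. It was 2.19 on slide 1 alone, 0.95 on slide 2 alone and 0.83 with brightness as a term. In whole muscle Pdha1 differed by -0.51, and the polysome minus whole-muscle test gave 2.48 (limma adjusted p = 0.12). Dld, the E3 subunit that pyruvate dehydrogenase shares with other complexes, differed by 1.14 and lost its call without WT replicate 2 (0.81), while its second, dimmer probe read 1.51 and was called there too (1.29).

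The TCA calls were both subunits of succinyl-CoA ligase, the enzyme of the cycle's substrate-level phosphorylation. Suclg1, its alpha subunit, read 11.53, 11.59 and 11.97 in Het and 9.64, 10.83 and 10.54 in WT, a difference of 1.36 (SE 0.36). Here the lowest array was WT replicate 1, and without WT replicate 2 the difference was 1.60. Suclg2, the GTP-specific beta subunit, read 6.28, 6.64 and 6.32 in Het and 4.95, 3.91 and 5.49 in WT, a difference of 1.63 (SE 0.42) and 1.22 without WT replicate 2. Both kept their calls whichever array was left out. On slide 1 and slide 2 alone Suclg1 differed by 1.30 and 1.24, and Suclg2 by 1.86 and 0.99. Sucla2, the ATP-specific beta subunit, differed by 1.03 and did not pass the threshold.

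The calls among fatty acid genes were Etfdh, which passes electrons from acyl-CoA dehydrogenases to ubiquinone (1.34), and the fatty acid transporter Cd36 (1.09). Both were lost without WT replicate 2 (0.68 and 0.66) and without any one Het array, and Cd36 also without WT replicate 1 (1.02). The acyl-CoA dehydrogenase Acadsb, which breaks down branched short chains and was named by the rule outside this list, read 6.76, 7.25 and 7.45 in Het and 5.42, 5.17 and 6.17 in WT. All Het arrays were above all WT arrays, by 1.57 (SE 0.35) on average and by 1.38 without WT replicate 2, and the call held whichever array was left out. In whole muscle Acadsb differed by -0.70, and the polysome minus whole-muscle test gave 2.25 (limma adjusted p = 0.102). Aldh6a1, an enzyme of valine breakdown, read 9.80, 9.56 and 9.55 in Het and 8.13, 6.35 and 8.75 in WT, a difference of 1.89 (SE 0.58) and 1.19 without WT replicate 2. It was 2.56 on slide 1 alone, 0.80 on slide 2 alone and 0.83 with brightness as a term. Its second probe read 1.02, which was not called, and 1.47 without WT replicate 2, which was.

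Mitochondrial ribosomal proteins, which are made in the cytosol and translate the mitochondrial transcripts, gave 5 genes called higher and none lower of 77. Over all genes, 2.48% were called higher. Of the 77, 50 lay above 0, and the median was 0.21. Mrps5 read 6.10, 6.49 and 5.89 in Het and 4.71, 4.94 and 5.14 in WT, which do not overlap, and its difference of 1.23 (SE 0.27) kept its call whichever array was left out. The other 4 calls were each lost in at least 1 fit with an array left out. Mrps22 (1.15) was lost without WT 2 (0.76) or Het 1 (1.08), Mrps27 (1.14) without WT 1 (0.88), Mrps9 (1.07) without WT 2 (0.97) and Mrpl1 (1.03) without Het 2 (0.92). Of 32 mitochondrial solute carriers, 27 lay above 0 with a median of 0.36 and 3 were called higher, namely Slc25a35 (1.83), Slc25a25 (1.81) and Slc25a40 (1.48). In WT Slc25a35 was well above background on 2 arrays and Slc25a40 on 1, so that their differences include signals near background. The number called higher ran from 0 without Het 3 to 5 without WT 3, and was 1, with 1 called lower, without WT replicate 2. Slc25a35 and Slc25a40 lost their calls without WT replicate 2 (0.95 and 0.83) or any one Het array, and Slc25a25 without WT 1 (1.60) or Het 3 (1.39), while the second Slc25a25 probe was also called, at 2.37.

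The nuclear subunits of the respiratory chain itself were not called in either direction with all 6 arrays, and without WT replicate 2 the complex I subunits Ndufs8 (1.44) and Ndufa10 (1.30) were called higher. The median was 0.12 over 37 complex I genes, -0.08 over 27 genes of complexes II to IV and 0.08 over 16 ATP synthase genes. Ndufs4, a complex I subunit, differed by 0.29, with arrays that overlapped, and its sign turned on slide 2 alone (-0.04) and with brightness as a term (-0.09). Of 15 glycolytic enzymes none was called and the median was 0.06. Eno3, the muscle enolase, read 16.97, 16.75 and 17.07 in Het and 17.23, 17.37 and 16.96 in WT, a difference of -0.26. Medians of these 4 lists stayed between -0.17 and 0.23 whichever array was left out.

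The list medians under other settings show which of these groups depended on a single array or slide. The mitochondrial-DNA, pyruvate dehydrogenase and TCA medians stayed above 0 in every fit shown and were smaller on slide 2 and with brightness as a term. For the pyruvate dehydrogenase list the median was 0.47 on slide 2 alone and 0.21 with the brightness term, and for the TCA list it was 0.23 with the brightness term.

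**Figure D3:**
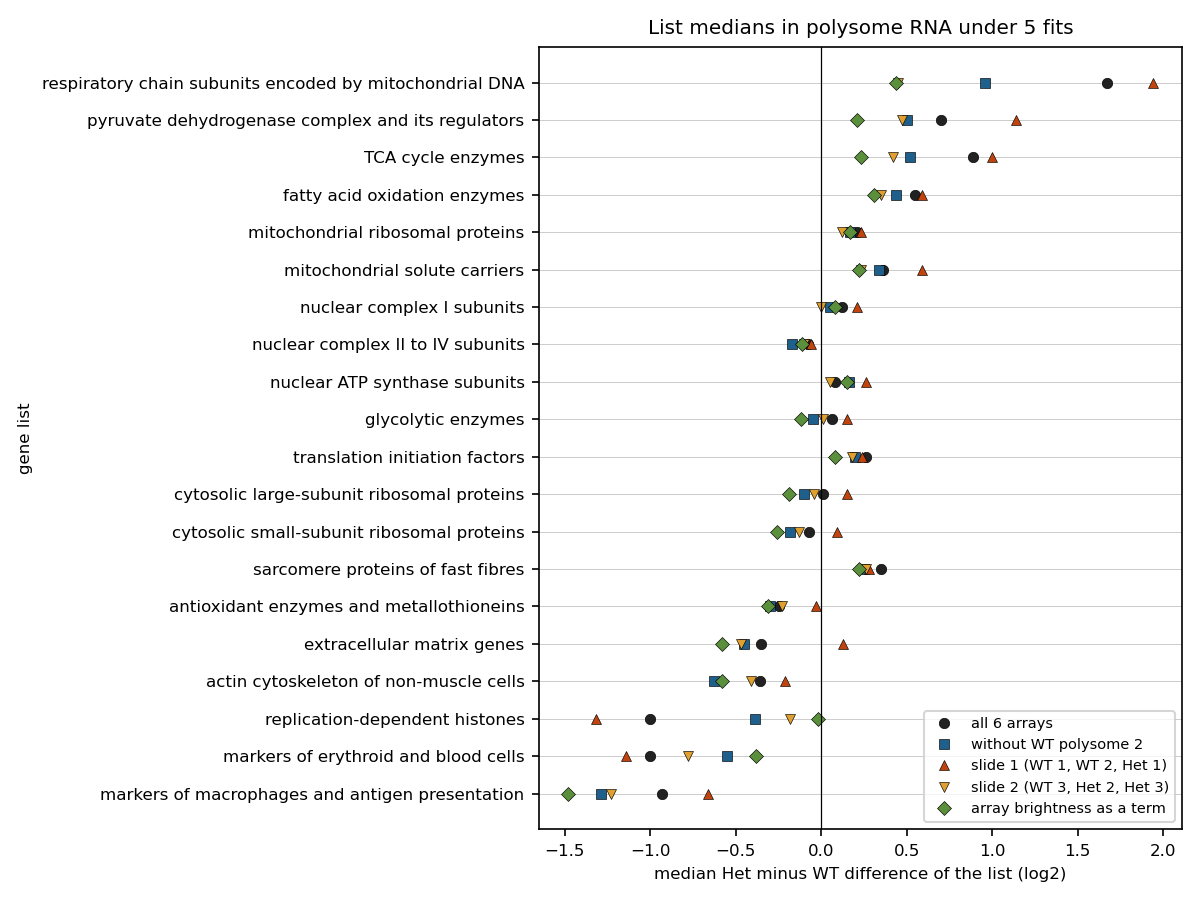
Median log2 Het minus WT difference (horizontal axis) of each gene list (vertical axis) in all 6 arrays, without WT replicate 2, on each slide alone, and with array brightness as a term. The mitochondrial-DNA median runs from 1.94 on slide 1 to 0.44 with the brightness term, the histone median from -1.32 on slide 1 to -0.02 with the brightness term, and the macrophage median from -0.66 on slide 1 to -1.48 with the brightness term.

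The translation machinery was examined because eIF6 acts on the 60S subunit. With all 6 arrays no cytosolic ribosomal protein gene was called in either direction, with a median of 0.01 (-0.10 without WT replicate 2) over 49 large-subunit genes and -0.07 over 33 small-subunit genes. The large-subunit gene Rpl3 was called lower without WT replicate 2, at -1.21. Of 43 initiation factor genes 28 lay above 0, the median was 0.26, 3 were called higher and 1, Eif6, lower. The number called higher ran from 1 without Het 2 or Het 3 to 5 without WT 3. The 3 higher genes encode subunits of eIF3, the scaffold that brings mRNA to the 40S subunit. Eif3e read 7.51, 7.86 and 7.73 in Het and 5.78, 6.62 and 6.45 in WT, so that no arrays overlapped. Its difference was 1.42 (SE 0.30), 1.61 without WT replicate 2, 1.31 on slide 1 and 1.35 on slide 2, and the call held whichever array was left out. In whole muscle Eif3e differed by -0.16, and the polysome minus whole-muscle test gave 1.57 (limma adjusted p = 0.102).

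Eif3a differed by 1.64 but by 0.81 without WT replicate 2, where its call was lost, as it was without any one Het array. Eif3i differed by 1.32, and lost its call without WT 1 (0.73), WT 3 (1.40) or any Het array. Among 19 genes that act with eIF6 in maturation of the large subunit, Eif6 included, the median was 0.13, with 2 called higher and Eif6 lower. Nmd3, the adaptor that exports the 60S subunit from the nucleus, read 5.47, 5.41 and 5.45 in Het and 3.90, 4.09 and 4.42 in WT. The Het arrays were within a narrow range above all WT arrays, only 1 of which was well above background, and the difference was 1.31 (SE 0.24), kept whichever array was left out and 1.48 and 1.01 on slides 1 and 2. Ncl, the nucleolar protein nucleolin, differed by 1.14 and lost its call without WT replicate 2 (0.88), and its second probe read -0.46.

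None of 13 elongation and release factors was called (median 0.26), and 1, Eef1a2, was called without WT replicate 2 (1.35). Of 20 cytosolic aminoacyl-tRNA synthetases (median 0.05) only Nars, which charges tRNA with asparagine, was called, at 1.03, and the call was lost without WT replicate 2 (0.57) or any Het array. Of 14 genes of the integrated stress response (median 0.21, or -0.20 without WT replicate 2 with 2 called lower) Chac1, a glutathione-degrading enzyme, was called higher at 1.37 and lost without WT 1 (0.81), Het 1 (1.12) or Het 3 (1.35). Of 31 proteasome subunits (median 0.20) Psmc6, a subunit of the regulatory particle, was called at 1.36 and was lost without WT replicate 2 (0.70) or any Het array. The core particle subunits Psmb2 (1.24), Psmb1 (1.04) and Psma6 (1.03) and the regulatory subunit Psmd14 (1.14) were called in its place without WT replicate 2.

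Genes of the contractile apparatus mostly lay a little above 0. Of 24 sarcomere genes of fast fibres 21 lay above 0, with a median of 0.35, and of 17 genes of calcium handling 16 lay above 0, with a median of 0.27. The calls were Myot, the Z-disc protein myotilin (1.11), Casq1, the calcium-binding protein of the sarcoplasmic reticulum, which is in both lists (1.04), and Atp2a1. Atp2a1, the calcium pump SERCA1 of fast fibres, read 11.84, 12.92 and 13.27 in Het and 9.81, 11.84 and 11.80 in WT. Het replicate 1 and WT replicates 2 and 3 were almost level, and the difference of 1.53 (SE 0.63) lost its call without WT 1 (0.86), Het 2 (1.41) or Het 3 (1.24). In whole muscle Atp2a1 differed by -1.19, and the polysome minus whole-muscle test gave 2.80 (limma adjusted p = 0.137). Casq1 lost its call without the same 3 arrays (0.67, 1.0 and 0.88), and Myot without WT 2 (0.67) or any Het array. None of 12 slow-fibre markers was called with all 6 arrays (median 0.14). Their median was 0.50 without WT replicate 2, -0.02 without WT 1, -0.08 without WT 3, -0.19 on slide 1 alone, 0.73 on slide 2 alone, and 0.77 with brightness as a term with 3 called higher.

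Replication-dependent histone genes made up the list with the most genes called lower in the main fit of all 6 arrays. This did not hold without WT replicate 2, where more macrophage markers were called lower (15 against 6). These genes encode the histones that package new DNA in S phase, and their mRNAs typically end in a stem-loop in place of a poly(A) tail. The labelling kit primes from poly(A) tails, so the signal need not follow the level of mRNAs without such a tail. How far it does was not tested. Of 41 replication-dependent histone genes on the array 33 were tested, 10 were called lower, against 1.88% of all genes, and 1 was called higher. The median difference was -1.0, and 12 lay above 0. Without WT replicate 2 the median was -0.39, with 6 lower and 2 higher, and WT replicate 2 was the highest array for 19 of the 33.

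The stem-loop itself is present in 2 of the 33 probes. They are shown because the element marks these mRNAs, with the stem-loop (a 6-base stem on either side of a 4-base loop) in capitals. The whole probes lie at chr13:21874784-21874843 on the minus strand for Hist1h3i and chr3:96074056-96074115 on the plus strand for Hist2h2bb (mm9).
Hist1h3i: acaaaaGGCTCTTTTCAGAGCCccctc
Hist2h2bb: ccaaaaGGCTCTTTTCAGAGCCacttta

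Hist2h2bb, an H2B gene (H2bc18 in RefSeq), read 5.90, 5.59 and 5.17 in Het and 8.47, 9.26 and 6.45 in WT. All WT arrays lay above all Het arrays, with WT replicate 3 the nearest. The difference was -2.51 (SE 0.68), -1.93 without WT replicate 2, -2.97 on slide 1 alone and -1.06 on slide 2 alone. Hist1h3i, an H3 gene, differed by -0.94 and did not pass the threshold. Hist1h1b, a linker histone (H1f5 in RefSeq), read 5.75, 4.58 and 4.57 in Het and 8.06, 8.00 and 5.96 in WT. Its difference was -2.37 (SE 0.63) and -2.08 without WT replicate 2, with -2.29 and -1.38 on slides 1 and 2.

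The other 8 genes called lower all encode H2A, and their probes share sequence. Among the 28 pairs of these 8 probes, 16 shared an identical run of at least 20 bases, and 7 of the 8 probes were in such a pair, so that the 8 calls are not 8 independent measurements. The pair with the longest run is shown with its 42 shared bases in capitals, and both probes end at the stop codon, tga. They lie at chr13:22127035-22127094 for Hist1h2ah and chr3:96024378-96024437 for Hist2h2ac, both on the minus strand (mm9).
Hist1h2ah: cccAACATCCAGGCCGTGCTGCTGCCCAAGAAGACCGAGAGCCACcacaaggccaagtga
Hist2h2ac: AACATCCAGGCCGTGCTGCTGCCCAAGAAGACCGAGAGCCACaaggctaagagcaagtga

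Hist1h2ah differed by -1.13 and Hist2h2ac by -1.15, each at -0.89 without WT replicate 2. Both calls were lost there, without WT 1 (-1.0 and -1.01) and without Het 2 (-1.01 and -1.02). Hist1h2ao (H2ac23 in RefSeq) read 10.22, 9.27 and 9.01 in Het and 13.04, 12.39 and 10.99 in WT. Again no arrays overlapped, and WT replicate 3 was the nearest to Het. The difference was -2.64 (SE 0.57), -2.49 without WT replicate 2, -2.49 on slide 1 alone and -1.85 on slide 2 alone, and in whole muscle it was -0.82. Hist1h2ab read 5.10, 4.71 and 4.22 in Het and 7.81, 8.17 and 6.12 in WT, a difference of -2.69. Hist1h2ag (-1.88) and Hist1h2an (-1.62), like Hist1h2ao and Hist1h2ab, kept their calls whichever array was left out. Hist1h2ak (-1.24) lost its call without WT replicate 2 (-0.99), and Hist1h2af (-1.10) without WT 1 (-0.97), WT 2 (-0.88) or Het 2 (-0.97).

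Hist2h2be, an H2B gene, was the 1 histone called higher. It read 3.67, 3.74 and 4.23 in Het and 1.48, 1.49 and 2.96 in WT, where it was not well above background on any array. Set against the lowest signal well above background on each WT array, it was at least 1.14-fold higher in Het (limma adjusted p = 0.459). Its probe starts at base 1849 of the transcript, far beyond the coding sequence of a histone. Histone genes whose probes start beyond base 700 of the transcript all lay above 0 (5 of 5), and of the 28 whose probes start before it 21 lay below 0 and 7 above. The limit of 700 bases was chosen after the values were seen, and this is a description without a test.

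**Figure D4:**
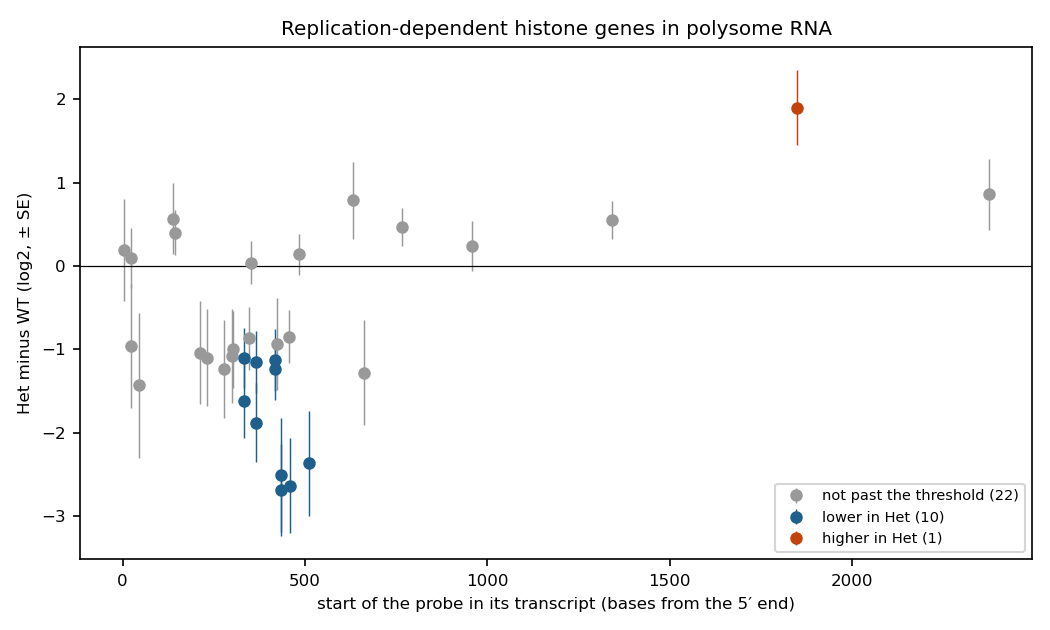
Log2 Het minus WT difference (vertical axis) of 33 replication-dependent histone genes against the base of the transcript at which the array probe starts (horizontal axis), with 1 point a gene, bars of 1 SE and colours for genes called lower, called higher or not called. All 5 points beyond base 700 lie above 0 and 21 of the 28 points before it lie below 0.

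As for the mitochondrial transcripts, the histone difference depended on the arrays. The median was -1.32 on slide 1 alone, -0.18 on slide 2 alone and -0.02 with brightness as a term. Leaving out 1 array at a time gave medians from -1.46 without WT replicate 3, with 18 genes lower, to -0.39 without WT replicate 2, with 6 lower. The whole-muscle median was -0.28, and the polysome minus whole-muscle test had a median of -0.62 with 7 of 33 at an unadjusted p under 0.05 and 0 after adjustment.

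Mt1 and Mt3, which encode metallothioneins, small proteins that bind zinc and copper, were called lower in Het. Of the 27 antioxidant and metallothionein genes 10 lay above 0, with a median of -0.25, and 2 were called lower and 1 higher, or 5 lower and none higher without WT replicate 2. Mt1 read 10.28, 10.43 and 9.69 in Het and 14.27, 10.47 and 12.47 in WT. WT replicate 2 was level with Het while WT 1 and WT 3 were far above it. The difference was -2.27 (SE 0.87) with all arrays, -3.20 without WT replicate 2 and -1.33 without WT replicate 1, and the call was lost when any array other than WT 2 was left out. Mt2 was likewise highest on WT 1 and WT 3, with 9.50, 9.96 and 8.21 in Het and 14.63, 8.98 and 12.54 in WT, but WT replicate 2 lay within the range of the Het arrays. Its difference of -2.82 (limma unadjusted p = 0.0681) did not pass the threshold, and was -4.31 without WT replicate 2, where it did. Mt3 read 7.24, 7.24 and 7.49 in Het and 9.33, 8.23 and 8.86 in WT, which do not overlap, and its difference of -1.48 (SE 0.33) kept its call whichever array was left out. The slides gave Mt3 differences of -1.55 and -1.49.

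The promoters of the neighbouring genes Mt2 and Mt1 are shown as background on these genes. Both transcripts were highest on WT replicates 1 and 3, but so were Mt3 and genes outside the family such as Lgals3 and S100a9. Metal response elements, bound by the zinc-sensing factor MTF-1, have the cores TGCACNC or TGCGCNC, which were searched on either strand in the 250 bases before each start site (RefSeq, GRCm38.p6). Of 32851 such promoters 7032 (21.4%) hold at least 1 core and 415 (1.26%) at least 3. Within this window Mt2 holds 3, Mt1 holds 1 and Mt3 holds 0. Cores outside the window were not searched, so these are not counts of all elements of a gene. A part of these elements in the order of the arrays was not tested. The windows are chr8:94172368-94172617 for Mt2 and chr8:94178839-94179088 for Mt1, both on the plus strand, with the cores in capitals.
Mt2: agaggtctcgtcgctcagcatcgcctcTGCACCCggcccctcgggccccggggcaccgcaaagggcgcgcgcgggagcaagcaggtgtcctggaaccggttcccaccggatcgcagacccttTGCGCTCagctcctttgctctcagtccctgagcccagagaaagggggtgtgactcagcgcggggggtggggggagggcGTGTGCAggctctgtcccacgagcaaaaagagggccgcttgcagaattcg
Mt1: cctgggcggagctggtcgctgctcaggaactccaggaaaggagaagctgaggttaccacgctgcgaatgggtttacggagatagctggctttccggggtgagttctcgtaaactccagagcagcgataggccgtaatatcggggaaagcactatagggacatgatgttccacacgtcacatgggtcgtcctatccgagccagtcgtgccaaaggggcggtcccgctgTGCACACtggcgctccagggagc

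Among the other antioxidant genes, Sod1, the cytosolic superoxide dismutase, read 13.26, 13.07 and 13.05 in Het and 13.21, 13.19 and 13.13 in WT, a difference of -0.05, and 0.05 on slide 1 alone. Sod2, the mitochondrial superoxide dismutase, differed by 0.43 and was not called. Prdx3, a mitochondrial peroxiredoxin, was called higher at 1.0 and lost its call without WT 1 (0.98), WT 2 (0.73) or Het 2 (0.92). Hmox1, the haem-degrading enzyme haem oxygenase, read 8.37, 7.85 and 8.14 in Het and 11.99, 7.83 and 9.84 in WT at its brighter probe. WT replicate 2 lay just below all Het arrays, and the difference of -1.76 did not pass the threshold, but -2.78 without WT replicate 2 did.

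Of 22 tested markers of macrophages and antigen presentation, 5 were called lower in Het polysomes, against 1.88% of all genes, and none higher. In 5 all Het arrays lay below all WT arrays, against 9.22% of all genes. The median was -0.93, and 21 of the 22 lay below 0. Without WT replicate 2 the median was -1.29 and 15 were called lower, against 2.64% of all genes in that fit. Across the list, the median signal was 7.80, 7.23 and 7.31 in Het replicates 1 to 3 and 10.45, 7.30 and 9.51 in WT. WT replicate 2 thus stood with the Het arrays, and for 19 of the 22 markers both WT 1 and WT 3 were above all Het arrays. In bulk RNA, fewer cells of a type and less RNA in each of them cannot be told apart.

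Lgals3, the carbohydrate-binding protein galectin-3, read 8.03, 8.02 and 7.83 in Het and 11.71, 8.89 and 10.53 in WT. The Het arrays were nearly identical and all below WT. The difference was -2.42 (SE 0.65), with -3.15 without WT replicate 2 and -1.76 without WT replicate 1, and the call held throughout. Laptm5, a lysosomal membrane protein of blood cells, differed by -1.63 and also kept its call whichever array was left out. Tyrobp, a signalling adaptor of myeloid receptors, differed by -1.70 with arrays of which WT 2 overlapped Het, and lost its call without WT 1 (-1.01), WT 3 (-1.73), Het 2 (-1.61) or Het 3 (-1.52). C1qb, a chain of the first complement component, differed by -1.24 and lost its call without WT 1 (-1.08), WT 3 (-1.03) or Het 2 (-1.0). Lyz2, lysozyme, differed by -1.0 and lost its call without WT 1 (-0.84), Het 1 (-0.90) or Het 2 (-0.83). Ctss, a lysosomal protease (-1.34), Cd68 (-1.66) and the chemokine Ccl6 (-1.65) passed the threshold only without WT replicate 2, at -3.04, -2.70 and -2.91, among the fits with 1 array left out or none. Without WT replicate 1 they were at -0.11, -0.87 and -0.61.

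Other myeloid genes reached the named list by their size. S100a9, a calcium-binding protein of neutrophils and monocytes (chr3:90496573-90496632), had the lowest difference of the genes named by rule. It read 4.92, 5.14 and 4.32 in Het and 11.21, 5.18 and 8.19 in WT, so that WT replicate 2 stood next to Het replicate 2. The difference was -3.40 (SE 1.33), -4.96 without WT replicate 2 and -1.88 without WT replicate 1, and the call was lost without any array other than WT 2. Of 10 neutrophil markers only 4 were tested, and none of the others among them was called. Aif1, an actin-binding protein of macrophages, differed by -1.99 and lost its call without WT 3 (-2.07), Het 2 (-1.77) or Het 3 (-2.08), and was -1.17 without WT 1 and -2.74 without WT 2. Clec4d, a C-type lectin of myeloid cells, differed by -2.0 and lost its call without Het 1 (-1.86) or Het 2 (-1.78), with -1.25 without WT 1 and -2.63 without WT 2.

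**Figure D5:**
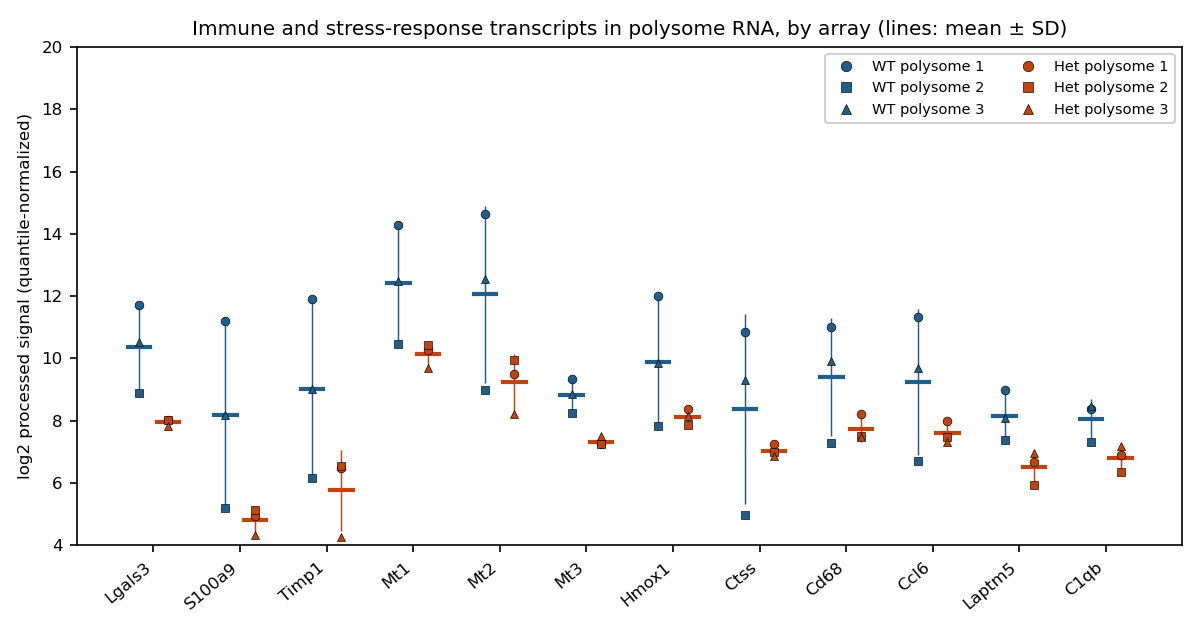
Log2 normalized signal (vertical axis) of 12 immune, matrix, metallothionein and stress-response genes (horizontal axis), with 1 point for each of the 3 Het and 3 WT polysome arrays and lines for the mean ± SD. For Lgals3 the Het points lie between 7.83 and 8.03 and the WT points between 8.89 and 11.71, and WT 2 is the WT point nearest to Het.

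The same direction was present in RNA that had not been fractionated, where every Het array was dimmer than every WT array. The macrophage list had a whole-muscle median of -1.29 with 20 of 22 below 0, and the polysome minus whole-muscle test had a median of 0.14 with 0 markers passing after adjustment and 1 at an unadjusted p under 0.05. Lgals3 differed by -2.22 and S100a9 by -4.11 in whole muscle. On slides 1 and 2 alone the polysome median was -0.66 and -1.23, and with brightness as a term it was -1.48. Leaving out WT replicate 1 gave the smallest median, -0.60, with 3 markers called lower, and leaving out Het replicate 2 gave -0.75 with 2.

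Genes of the extracellular matrix and of the actin cytoskeleton outside muscle fibres followed a similar order of arrays. Of 28 matrix genes 11 lay above 0, with a median of -0.35, and 3 were called lower, or 7 lower and 1 higher without WT replicate 2. Leaving out 1 array at a time gave medians from -0.45 to -0.08, with 0 to 7 genes called lower and 0 to 2 higher. On slide 1 alone, where WT 2 is 1 of the 2 WT arrays, the median was 0.13. Timp1, an inhibitor of matrix proteases (chrX:20451802-20451861), read 6.48, 6.55 and 4.25 in Het and 11.92, 6.16 and 9.0 in WT. The Het arrays overlapped WT replicate 2, and the difference of -3.27 (SE 1.38) was -4.73 without WT 2 and -1.81 without WT 1, with the call lost when any array other than WT 2 was left out. In whole muscle Timp1 also differed by -3.27. Col15a1, a basement membrane collagen, ran the other way among the WT arrays, at 5.58, 4.92 and 5.45 in Het and 6.69, 9.05 and 6.30 in WT. Its difference was -2.03, or -1.21 without WT replicate 2, and its call was lost without Het 2 (-1.81) or Het 3 (-2.13). Col3a1, a fibrillar collagen, differed by -1.01 and lost its call without WT 1 (-0.86), WT 3 (-0.90) or Het 3 (-0.87).

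Of 23 actin cytoskeleton genes 6 lay above 0, with a median of -0.36, 3 called lower and 1 higher, or 6 lower and none higher without WT replicate 2. Leaving out 1 array at a time gave medians from -0.63 to -0.11 and from 2 to 6 genes called lower. Tmsb10, a thymosin that binds actin monomers, read 10.72, 10.21 and 9.91 in Het and 12.72, 11.68 and 11.96 in WT. All 3 WT arrays, WT replicate 2 included, were above all Het arrays, and the difference of -1.84 (SE 0.36) kept its call whichever array was left out, with -1.48 and -1.90 on slides 1 and 2. Cotl1, a coactosin-like protein that binds actin filaments and was named by the rule outside this list, read 9.37, 8.70 and 9.02 in Het and 12.18, 10.30 and 10.55 in WT, a difference of -1.98 (SE 0.51) that also held, with -1.40 without WT 1. Actb, cytoplasmic beta-actin, differed by -1.27 and held, with -1.0 without WT 1, while Coro1a, a coronin of blood cells, differed by -1.76 and lost its call without Het 2 (-1.54) and was -1.05 without WT 1. Cfl2, the cofilin of muscle, was called higher at 1.07 and lost without WT 2 (0.72), Het 1 (1.08) or Het 2 (0.99).

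Erythroid transcripts were low in Het as well, but with WT replicate 2 at the other extreme. Of 9 tested markers 8 lay below 0 and 4 were called lower, against 1.88% of all genes, with a median of -1.0. Of the 9, 6 were highest on WT replicate 2. Hba-a2, an alpha-globin, read 15.88, 15.43 and 15.62 in Het and 17.03, 17.65 and 16.47 in WT. The genotypes did not overlap, and the difference of -1.40 (SE 0.35) was -1.12 without WT replicate 2, -1.46 on slide 1 and -0.95 on slide 2. Alas2, the first enzyme of haem synthesis in red cell precursors, read 7.56, 6.89 and 7.32 in Het and 8.49, 9.36 and 8.13 in WT, a difference of -1.40 (SE 0.38). Both kept their calls whichever array was left out. Hba-a1 differed by -1.30 and lost its call without WT replicate 2 (-0.93), and Hbb-bt, a beta-globin, differed by -1.0 and lost its call without WT replicate 2 (-0.58) or any Het array. The 2 alpha-globin genes are near-identical copies, so that their values may not be independent. Bpgm, the red cell enzyme that makes 2,3-bisphosphoglycerate, was the 1 marker above 0 at 0.71. The median of the list was -0.55 without WT replicate 2, with 2 called lower, and in whole muscle 0.09.

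Some genes outside these lists were named by the rule. Sdc4, the heparan sulfate proteoglycan syndecan-4, read 6.20, 6.42 and 6.73 in Het and 4.77, 5.02 and 4.44 in WT. The 2 sets of arrays were each tight and well apart, with a difference of 1.71 (SE 0.27), 1.89 without WT replicate 2, 1.30 on slide 1 and 2.14 on slide 2. In whole muscle Sdc4 differed by 2.24. Pde4b, a phosphodiesterase that breaks down cyclic AMP, read 7.17, 7.27 and 7.40 in Het and 6.10, 5.20 and 5.73 in WT, a difference of 1.60 (SE 0.29), or 1.39 without WT replicate 2. Its second probe read 0.58 with overlapping arrays and was not called, but was called at 1.05 without WT replicate 2. Ccdc166, a gene named for its coiled-coil domain, read 6.61, 6.18 and 6.69 in Het and 8.49, 8.16 and 8.47 in WT. Its difference of -1.88 (SE 0.26) had the smallest unadjusted p among the genes named, 0.00015 by limma, and lay between -2.01 and -1.71 whichever array was left out.

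Angptl4, an inhibitor of lipoprotein lipase, read 7.55, 7.47 and 6.95 in Het and 10.76, 7.92 and 9.28 in WT, with WT replicate 2 nearest to Het. Its difference of -2.0 was -2.70 without WT 2 and -1.27 without WT 1, and its call was lost without Het 3 (-1.83). Fundc2, an outer mitochondrial membrane protein, differed by 1.67 at the probe named, which kept its call whichever array was left out, but its brighter probe read 0.66 with overlapping arrays and was not called. Txlnb, the muscle taxilin, differed by 1.63 and lost its call without Het 2 (1.45). It was at 1.03 without WT replicate 2, 1.88 and 0.87 on slides 1 and 2 alone, and 0.60 with brightness as a term. Cul2, a cullin scaffold of ubiquitin ligases, differed by 1.60 at the probe named, and its other probes read 1.0 and -0.19. The predicted genes Gm6981, Gm8709 and Gm5069 differed by 1.73, 1.71 and 1.62 at the probes named, and Gm6981 lost its call without WT 1 (0.93), Het 2 (1.69) or Het 3 (1.49). Their other probes were not called with all 6 arrays. They read 0.06, 0.55, 0.54 and 0.10 for Gm6981, 0.35 and 1.36 for Gm8709, the latter called without WT replicate 2 (1.69), and 0.10 and 0.73 for Gm5069.

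Gapdh, the glycolytic enzyme glyceraldehyde-3-phosphate dehydrogenase, was named through 1 of its 8 probes, and its probes did not give 1 answer. The named probe starts at base 429 of the transcript and read 13.08, 13.85 and 13.97 in Het and 10.60, 12.81 and 12.74 in WT, a difference of 1.58. Its call was lost without WT 1 (0.87), Het 2 (1.48) or Het 3 (1.42). The probe at base 346 read 1.50 and did not pass, and those at bases 581, 930, 1087 and 1354 read 0.62, 0.65, 0.53 and 0.50. Those at bases 346 and 581 were called without WT replicate 2 (2.02 and 1.05). The 2 brightest probes, at bases 1365 and 554 of the transcripts listed for them, read 0.00 and -0.14. The files place the latter and the probe at base 1354 on chromosome 7, and the others on chromosome 6. Among the 6 on chromosome 6, the 2 probes nearest the 5′ end gave the larger differences. Over the 658 probe pairs of all genes the median difference was -0.18 at the 5′ probe and 0.22 at the 3′ probe, or 0.10 and 0.08 without WT replicate 2.

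For some genes the signal of a probe was well above background in 1 genotype only, so that the difference at that probe is a lower bound. There were 31 genes with such a probe higher and 6 lower in Het among those called. For each array of the dim group, the larger of the probe's signal and the array's lowest signal well above background was taken. The bound sets the mean of the bright group against the mean of these values. Rem1, a small GTPase that inhibits calcium channels, read 5.97, 5.12 and 5.66 in Het and was at least 3.71-fold higher than in WT. Akap5, an anchor of protein kinase A, was at least 3.49-fold higher, Nudt6 at least 2.34-fold and the SNARE protein Snap47 at least 2.18-fold. In the other direction, the second probe of Hmox1 was at least 3.30-fold lower in Het, the hyaluronan synthase Has1 at least 2.36-fold (1.46-fold without WT replicate 2), the transcription factor Rfx3 at least 2.23-fold and Fmr1, which encodes an RNA-binding translational repressor, at least 2.06-fold. The limma adjusted p of each was 0.459. The bounds without WT replicate 2 lay between 2.75 and 4.75 for the 4 genes higher in Het and between 1.46 and 2.29 for the 4 lower. Fmr1 lost its call without WT replicate 2 (fitted difference -0.75) or any Het array, and the Hmox1 probe without Het 2 (-1.58). Of the called genes described above, Suclg2, Eif3a and Mrps5 were well above background on 2 of the 3 WT arrays, and Hist1h2ab and Timp1 on 2 of the 3 Het arrays.

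The sirtuins are deacylases that remove acetyl and other acyl groups from proteins, and none of the 3 examined passed the threshold in polysome RNA. Sirt4, a mitochondrial member, read 6.89, 6.80 and 6.25 in Het and 5.66, 6.02 and 5.90 in WT. These do not overlap, and the difference was 0.79 (SE 0.27, limma unadjusted p = 0.0232). A second Sirt4 probe read 0.70 with overlapping arrays. Sirt5, also mitochondrial, read 8.15, 8.22 and 7.97 in Het and 7.43, 6.66 and 7.44 in WT. It differed by 0.94 (SE 0.29, limma unadjusted p = 0.015). Sirt6, a nuclear member, read 8.54, 7.92 and 9.17 in Het and 8.53, 9.23 and 9.19 in WT, with full overlap and a difference of -0.44. It lay between -0.76 and -0.13 with 1 array left out. In whole muscle Sirt6 differed by 0.70, and the polysome minus whole-muscle test gave -1.15 (limma unadjusted p = 0.00383, adjusted p = 0.111). Of the 15 sirtuin and histone deacetylase genes tested, none was called, and the median was 0.07. The cytoplasmic sirtuin Sirt2 was called higher without WT replicate 2, at 1.04.

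Over all genes, 0 of 19066 probes passed an adjusted p of 0.05 in limma's test of polysome against whole-muscle differences, with 3251 at an unadjusted p under 0.05 and a smallest adjusted p of 0.102. A gene's polysome difference beside a smaller or opposite whole-muscle value, as for Pdha1 or Atp2a1, is therefore not shown to differ from it after adjustment. Over the whole array, 165 probes of 160 genes, 69 higher and 91 lower, were well above background on all 6 arrays, did not overlap between genotypes and were called both with and without WT replicate 2.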

How the data were processed

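Gastrocnemius RNA from pooled polysome fractions of 3 Het and 3 WT mice was labelled with Cy3 by the authors using a low-input kit that primes from poly(A) tails, and hybridised to Agilent arrays of 60-base probes. The deposited scanner files hold spot intensities. Per the file headers, they came from Feature Extraction 11.0.1.1 with protocol GE1_1100_Jul11, and their processed signal intensity is background-subtracted and not scaled between arrays. The authors' deposited table of log2 values, which follows the unsubtracted signal, served as an alternative. Probe positions are on mm9.

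Processed signals were log2 transformed, spots marked as outliers were dropped, spots of a probe were averaged, and the 6 arrays were quantile-normalized together. Genotypes were compared, unpaired, with limma 3.58.1 in R 4.3.3 (with the data.table package, version 1.17.8, and jsonlite 2.0.0), and p-values were adjusted by Benjamini-Hochberg over the whole tested set. Equal replicate numbers did not pair the mice, since the correlations of their deviations were 0.443, -0.327 and -0.241. Polysome and whole-muscle differences were set against each other through each mouse's log2 ratio, with the 12 arrays normalized together. Each mouse gave both kinds of RNA per the design text of the series. The labels do not name the mouse, and equal numbers within a genotype were taken to mark 1 mouse. The number of arrays, 3 a genotype, limits the precision, and p-values measure the spread between these mice. RefSeq accessions came with 13356 of the tested probes. The gene table held 13255 of these, with an unchanged symbol for 12582.

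The study's methods name the threshold without an adjustment and Benjamini-Hochberg as their general correction, so both counts are given. The genes in every case were Eif6, Sirt4, Sirt5, Sirt6, Sod1, Sod2, Ndufs4 and Eno3. To them were added the 12 highest and 12 lowest differences among probes well above background on all 6 arrays, not overlapping and past the threshold with and without WT replicate 2, so that their calls without it were fixed by the choice, and the largest bounds in each direction among genes bright in 1 genotype only. In lists, the probe with the highest mean signal stood for a gene. The arrays, lists and tests were chosen with earlier results of these data known, so that a list's count is not independent evidence. The fits were tested on data with known differences. Tables and plots used Python 3.11.15, pandas 2.3.3, numpy 2.4.6 and matplotlib 3.10.9.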

Additional observations from a re-analysis of the deposited data

How the results depend on the processing

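At the study's threshold, 845 genes were called. The count was 195 with normexp background correction, 202 from the authors' table, 1278 without a filter on dim probes, 552 with probes well above background on all 6 arrays, 393 with slide as a term, 114 on slide 1 alone, 537 on slide 2 alone and 399 with the methods' t-test. It lay between 388 and 1651 when 1 array was left out, and was 753 with the replicate block, a fit by numbers that did not pair the mice. Under 75th percentile scaling it was 1063, and with array brightness as a term 922, of which 270 were among the 845. None of these settings gave a probe with a limma or t-test adjusted p under 0.05, and the cause of the changes in count was not tested.

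Eif6 kept its direction in every fit run. It did not pass the threshold with array brightness as a term (-0.94), on slide 2 alone (-0.96) or on slide 1 alone (-1.27, as large as with all arrays), and each slide has a single array of 1 genotype. It lay between -1.40 and -1.03 with 1 array left out. The test against whole muscle gave 1 probe, an unnamed intergenic transcript, with no replicate block (-2.93, limma adjusted p = 0.0434) and 0 with it. Signs turned for COX2 with brightness as a term (-0.20), Sod1 on slide 1 alone (0.05), Ndufs4 on slide 2 alone (-0.04) and with brightness (-0.09), and ND6 on slide 2 alone (0.16), with brightness (0.10) and between -0.53 and 0.12 with 1 array left out. Of the other values of named genes 1430 were on the same side of the threshold, 496 lost a call and 47 gained one. The dim WT replicate 2 limits probes near background.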

Other observations

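Other cell types and regulators gave few calls. Of 18 regulators of mitochondrial biogenesis none was called, with a median of 0.29, and Tfam, which packages mitochondrial DNA, was at 0.86 and Ppargc1a at 0.27. Of 20 atrophy and autophagy genes none was called, with a median of 0.36, and the ubiquitin ligases Trim63 and Fbxo32 were at 0.47 and 0.28. Thrsp, a regulator of lipid synthesis, was the 1 call among 12 adipocyte markers (median -0.12). It read 9.34, 9.29 and 9.46 in Het and 7.77, 7.81 and 8.85 in WT, a difference of 1.22 that kept its call whichever array was left out, while Adipoq, which encodes adiponectin, was at -0.04.

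Of 14 endothelial markers none was called (median -0.17), and likewise none of 9 markers of satellite cells (median -0.12), of 8 of Schwann cells (median 0.02) or of 8 nuclear and small nucleolar RNAs (median 0.19, or -0.17 without WT replicate 2). Among 13 fibroblast markers (median -0.30) Col3a1 was the only call. Without WT replicate 2, 2 atrophy and autophagy genes, Mstn (1.26) and Sqstm1 (1.09), the biogenesis regulator Gabpa (1.12) and the fibroblast marker Fmod (1.23) were called higher, and the fibroblast marker Thy1 (-1.02) and the satellite cell list's Myh3 (-2.79) and Myog (-1.33) lower. Among 10 markers of smooth muscle and pericytes (median -0.07) the proteoglycan Cspg4 was called lower at -1.10, and the call was lost without WT replicate 2 (-0.64) or any Het array.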
